A study of Mus musculus with 22 samples.

Results

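The genes described here encode the adhesion molecules and cytoskeletal anchors of the node of Ranvier and its flanks. They were chosen by name and matched to the count table through their Ensembl identifiers, which gave 9 of the 21995 genes of the table: Cntn1, Cntn2, Cntnap1, Cntnap2, Nfasc, Nrcam, Ank3, Sptbn4 and Epb41l3. The list of names uses no measured value, but it was chosen with earlier results of these data known. Each was examined in whole spinal cord in a comparison of old with young mice and, separately, in a comparison of SOD1 G93A mice with controls. All 22 mice were of the C57BL/6 strain. For aging, 8 young mice at 3 to 4 months and 8 old mice at 18 to 24 months were used, all wild type and male, and their libraries were made with the Roche KAPA HyperPrep kit. For ALS, 3 SOD1 G93A mice and 3 wild-type controls at 5 to 6 months were used, with 2 females and 1 male in each group, and their libraries were made with the Illumina TruSeq kit. SOD1 G93A mice carry the mutant human gene as a transgene under the human SOD1 promoter, which is not limited to 1 cell type, and they were sampled with symptoms. Because kit, the mix of sexes and experiment change together between aging and ALS, levels were not compared across the 2 experiments.

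Myelinated axons carry sodium channels in short gaps between myelin segments, the nodes of Ranvier. On either side the glial loops are sealed to the axon at the paranode, where axonal contactin-1 (Cntn1) and Caspr (Cntnap1) bind a glial isoform of neurofascin (Nfasc). Beyond it, the juxtaparanode under the myelin holds Caspr2 (Cntnap2) and contactin-2 (Cntn2) with potassium channels of the Kv1 type. In the gap itself a neuronal isoform of neurofascin and the related NrCAM (Nrcam) are tied through ankyrin-G (Ank3) to beta-IV spectrin (Sptbn4), as at the axon initial segment, and a membrane adaptor (Epb41l3) links the Caspr proteins to the axonal spectrin skeleton.

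The genes lie on 8 chromosomes of the GRCm38 mouse genome, and all 9 are protein-coding in the GENCODE M21 annotation. Nfasc is at chr1:132564690-132741797 on the minus strand, close to Cntn2 at chr1:132509427-132543256 on the same strand. Cntn1 is at chr15:92051165-92341967, Cntnap1 at chr11:101170523-101190724, Nrcam at chr12:44328885-44601964, Ank3 at chr10:69398773-70027438 and Epb41l3 at chr17:69075683-69289989, each on the plus strand. Cntnap2, at chr6:45059357-47304213 on the plus strand, spans 2245 kb, and Sptbn4 is at chr7:27356383-27447686 on the minus strand. Cntnap1 overlaps the protein-coding genes Plekhh3 and Ccr10 on the other strand, Sptbn4 overlaps Gm20479 on its own strand, and whether the counting used strand is not given in the sources used here, so reads of these partners may be mixed. The counts are per gene, so the glial and the neuronal isoform of Nfasc were not separated.

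RefSeq promoter windows on GRCm38.p6 matched 7 of the 9 genes, in 16 windows, and Cntnap1 and Ank3 were not among them. The 250 bases before an annotated start are printed for Nrcam, which rose in SOD1 G93A mice, for Nfasc, which lay above every control there but missed the threshold, and for the 2 genes at 56% and 60% of their control level, Epb41l3 and Cntnap2, so that genes above and below the controls can be compared. On both strands, 4 short motifs were searched. They were the GC box GGGCGG, the E-box CACGTG, the cyclic AMP response element TGACGTCA and the TATA box TATAAA, none of which holds another. Capitals mark matches.
Nfasc, chr1:132707327-132707576, minus strand: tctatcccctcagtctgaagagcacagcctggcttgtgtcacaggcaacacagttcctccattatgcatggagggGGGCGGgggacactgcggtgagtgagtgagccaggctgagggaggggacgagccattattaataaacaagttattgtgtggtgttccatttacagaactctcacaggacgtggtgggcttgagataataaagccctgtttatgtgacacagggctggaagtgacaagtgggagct
Nrcam, chr12:44328635-44328884, plus strand: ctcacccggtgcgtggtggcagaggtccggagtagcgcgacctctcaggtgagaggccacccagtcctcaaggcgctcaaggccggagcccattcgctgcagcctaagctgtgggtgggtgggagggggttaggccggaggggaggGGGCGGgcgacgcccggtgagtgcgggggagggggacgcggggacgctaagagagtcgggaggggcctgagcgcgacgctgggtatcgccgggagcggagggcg
Epb41l3, chr17:69075427-69075676, plus strand: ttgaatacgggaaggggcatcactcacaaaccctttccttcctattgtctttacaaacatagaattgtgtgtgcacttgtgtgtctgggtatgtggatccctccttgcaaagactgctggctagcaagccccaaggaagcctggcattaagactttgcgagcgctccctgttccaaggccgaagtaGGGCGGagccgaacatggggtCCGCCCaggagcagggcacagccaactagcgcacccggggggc
Cntnap2, chr6:45059811-45060060, plus strand: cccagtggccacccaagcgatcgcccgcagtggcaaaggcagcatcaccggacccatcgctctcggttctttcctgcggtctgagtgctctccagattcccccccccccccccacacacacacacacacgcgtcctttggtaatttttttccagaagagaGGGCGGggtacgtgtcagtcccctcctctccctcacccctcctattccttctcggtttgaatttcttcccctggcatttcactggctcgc
Only the first listed window of each gene is printed. Each of these 4 windows held at least 1 GC box, and none held the other 3 motifs. In these windows the GC box thus did not separate the 2 genes above the controls from the 2 below them. The further windows of Nfasc, Epb41l3 and Cntnap2 held no GC box, so this outcome depends on the window chosen. Over all 16 windows, 8 held a GC box, 1 held a TATA box, and 0 held an E-box or a cyclic AMP response element. Among the 32851 windows of the same length in the table, a GC box was found in 32.7%, a TATA box in 12.4%, an E-box in 6.02% and a cyclic AMP response element in 1.55%. The window of Nrcam was 72.4% G and C, above those of Cntnap2 with 59.6%, Epb41l3 with 56.0% and Nfasc with 52.0%.

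The young libraries held 5078092 to 9358055 counts and the old libraries 5664869 to 9145600, against 10693060 to 13219797 in controls and 9675610 to 11872431 in SOD1 G93A mice. Each of the 9 genes had at least 729 counts in every aging library and at least 851 in every ALS library. Libraries are numbered within a group in the order of the table's columns, since the columns give no replicate number. Levels are counts scaled to the library size (CPM) by the TMM method, and a gene was called changed when its Benjamini-Hochberg adjusted p in edgeR's quasi-likelihood test was under 0.05. Sod1 in the SOD1 G93A libraries was at 296 to 335 CPM, above the 156 to 168 CPM of the controls. Neuron, oligodendrocyte and motor neuron markers were present in every library, among them Mbp and Snap25.

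Per unit of transcript length, in FPKM, Epb41l3 was the most abundant of the 9 genes in young cord with a median of 145, followed by Cntn1 with 90.4, Ank3 with 86.1, Nfasc with 77.8, Cntn2 with 64.7, Nrcam with 53.4, Cntnap1 with 52.9, Cntnap2 with 28.8 and Sptbn4 with 27.6. Epb41l3 exceeded Cntn1 in 8 of 8 young libraries. Cntn1 exceeded Ank3, and Ank3 exceeded Nfasc, in 6 of 8 each, so these neighbours were not separated beyond the spread, nor were Nrcam and Cntnap1 or Cntnap2 and Sptbn4, also ordered this way in 6 of 8. Old cord had the same order of medians, with Ank3 above Nfasc in 4 of 8 libraries. In controls the order by median FPKM was Epb41l3 144.9, Ank3 94.6, Cntn1 74.8, Nfasc 66.5, Cntn2 64.7, Nrcam 48.5, Cntnap1 47.2, Sptbn4 34.5 and Cntnap2 25.2. Nfasc exceeded Cntn2, and Nrcam exceeded Cntnap1, in 1 of 3 controls each, so these neighbours were not separated. The order in SOD1 G93A mice was another one, with Nrcam first at 103, Nfasc next at 91.6, Cntn1 at 78.7 and Epb41l3, which led in controls, at 75.1. Nrcam exceeded Nfasc in 2 of 3 of these libraries, and Cntn1 exceeded Epb41l3 in 1 of 3, so these neighbours were not separated. The order depended on the length used. With counts per kb of all annotated exon sequence, 3 of 9 genes kept their place in young cord, and Ank3, whose 31 coding transcripts cover 34.8 kb, went from the third place to the last. On that scale Nrcam went from the first place to the sixth in SOD1 G93A mice.

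**Figure D1:**
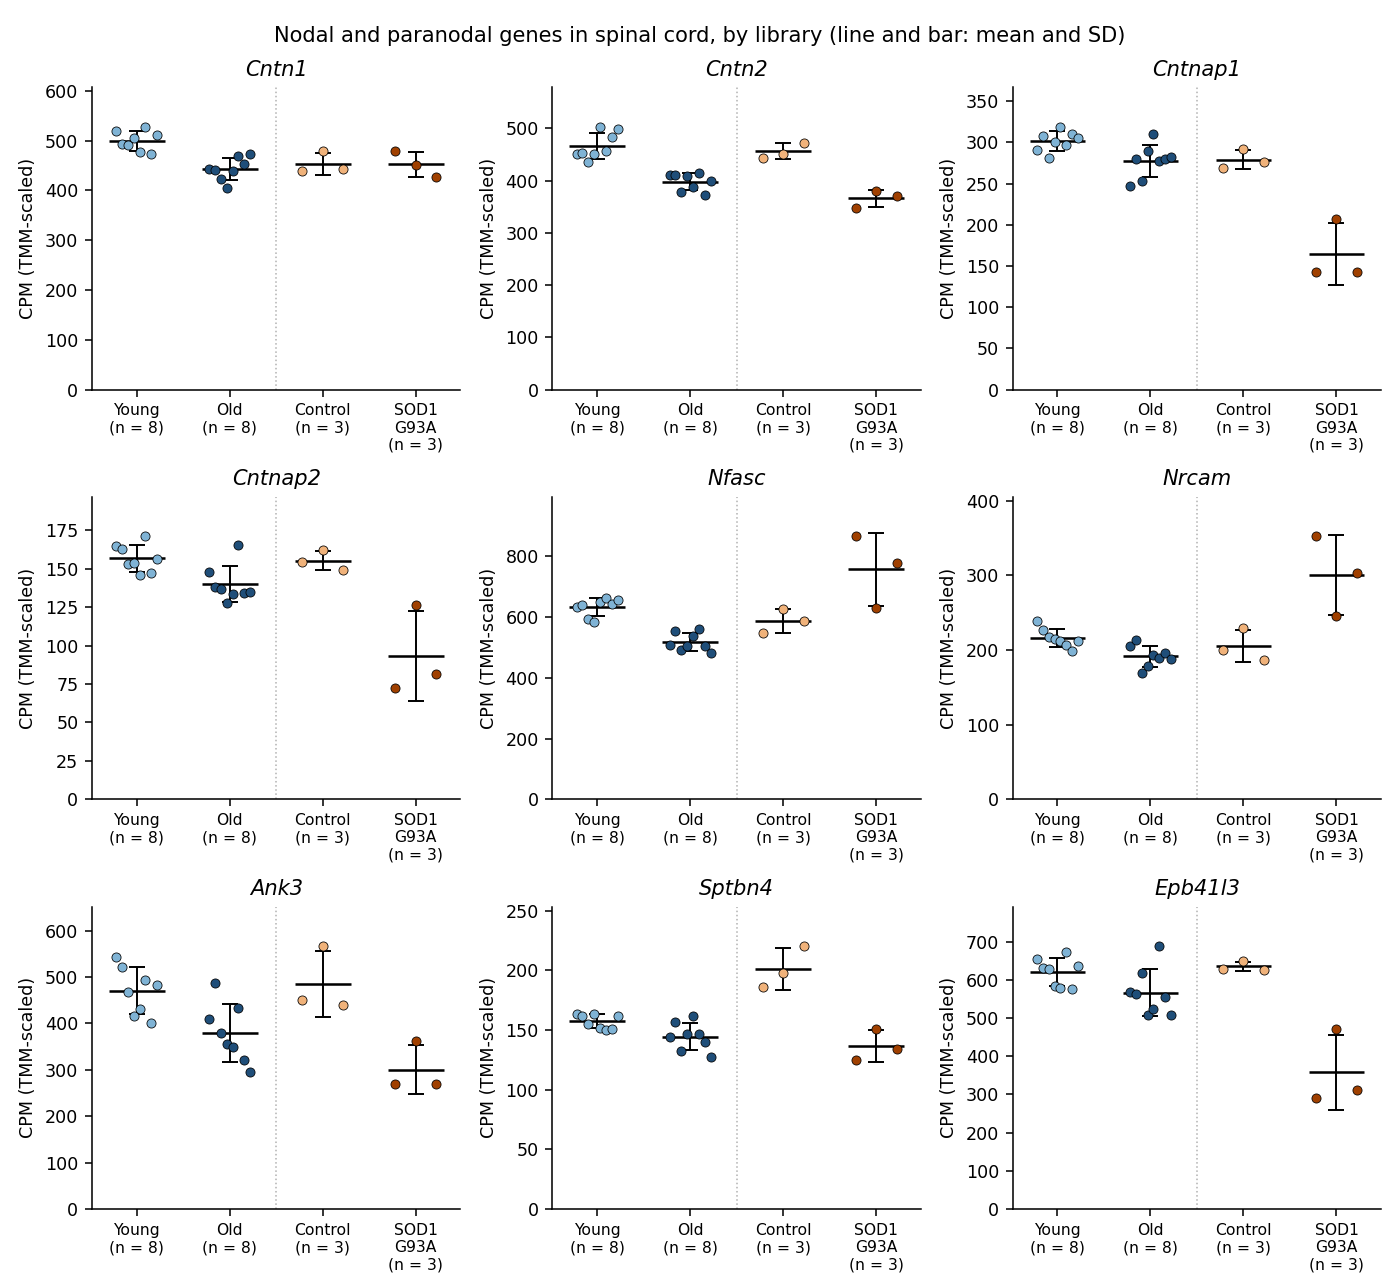
TMM-scaled CPM of each of the 9 genes in every library, 1 point per mouse, with the mean and SD of each group as line and bar. The dotted line separates the aging from the ALS experiment. In SOD1 G93A mice 6 genes sat below every control library and Nfasc and Nrcam above every control library. Of all tested genes 24.7% sat below and 25.7% above every control. Old and young libraries overlapped for all genes except Cntn2 and Nfasc, which were lower without overlap, as were 1.66% of tested genes.

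In old mice the 9 genes were slightly lower than in young mice. By the test 7 of 9 fell and 0 rose, while 26.4% of the 13647 tested genes changed, 12.9% falling and 13.5% rising. The falls were small, from 0.12 to 0.31 on the log2 scale, and none passed a log2 fold change of 1, which 2.22% of tested genes did together with the test. All 9 genes had a log2 fold change below 0, as had 50.6% of tested genes, with a median of −0.17 beside −0.0027 for all tested genes. In bulk tissue, fewer cells of a type and less RNA per cell cannot be told apart.

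Long genes were lower in old mice across the whole table. The log2 fold change of 13635 genes ran against their annotated exon length with a Spearman rho of −0.385, a correlation across genes, which share the same libraries and are not independent. The 9 genes have 5.88 to 34.8 kb of exon, longer than 75.7% of genes or more. Of the 1918 tested genes over 9 kb, 36.0% fell, with a median of −0.13. When each library was corrected for exon length by loess, 3 of the 9 genes kept the call, against 22.3% of all tested genes called in either direction. These 3 were Cntn2 at −0.16 (SE 0.04, adjusted p = 0.00828), Nfasc at −0.15 (SE 0.04, adjusted p = 0.0105) and Cntnap1 at −0.13 (SE 0.05, adjusted p = 0.0406). The correction used all annotated exon sequence of a gene, 34.8 kb for Ank3, which lost the call. The length that counts and FPKM imply for Ank3 was 5.08 to 5.62 kb in young and 5.51 to 6.56 kb in old libraries. A correction by that length was not tested. Whether the length trend arose in the tissue or in the libraries was not tested.

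Nfasc, the gene of both neurofascin isoforms, fell most clearly with age. Its CPM ran from 584 to 662 with a median of 642 in young libraries, and from 483 to 563 with a median of 507 in old libraries. Every old library lay below every young library, which was so for 1.66% of tested genes, with the reverse for 3.66%. Its log2 fold change was −0.29 (SE 0.04, adjusted p = 1.54e-05). The genes whose log2 CPM ran closest to that of Nfasc over the 16 libraries, relative to their means, were Mical3, Sptbn1 and Pitpnc1, with root mean square differences of 0.049, 0.058 and 0.064, and Cntn2 stood 9th of 13646.

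Cntn2, the juxtaparanodal contactin, was the other gene without overlap. Young libraries had 435 to 503 CPM with a median of 454, and old libraries 372 to 415 CPM with a median of 404. Its log2 fold change was −0.23 (SE 0.04, adjusted p = 0.000161). Its partner Cntnap2 ran from 146 to 171 CPM with a median of 155 in young mice and from 128 to 165 with a median of 136 in old mice. The groups overlapped through old library 1 at 148 CPM and old library 6 at 165 CPM. The log2 fold change of Cntnap2 was −0.17 (SE 0.05, adjusted p = 0.0151).

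Both genes of the paranodal pair fell. Cntn1 had 472 to 528 CPM with a median of 498 in young libraries and 404 to 473 with a median of 443 in old libraries, 7 of the 8 old ones below every young one. Its log2 fold change was −0.17 (SE 0.04, adjusted p = 0.00212). Cntnap1 ran from 282 to 319 CPM with a median of 303 in young mice and from 247 to 310 with a median of 280 in old mice. Its log2 fold change of −0.12 (SE 0.04, adjusted p = 0.0448) lay close to the threshold and lost the call in 10 of 16 fits that left out 1 library. The log2 ratio of Cntnap1 to Cntn1 was −0.73 ± 0.10 (SD, n = 8) in young and −0.68 ± 0.13 (SD, n = 8) in old libraries, with overlapping ranges.

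Among the anchors, Ank3, the nodal ankyrin, had the largest and the least precise fall. Its CPM spanned 402 to 544 with a median of 476 in young libraries and 295 to 487 with a median of 368 in old libraries, with a log2 fold change of −0.31 (SE 0.08, adjusted p = 0.00751). Nrcam ran from 198 to 238 CPM with a median of 214 in young mice and from 169 to 213 with a median of 191 in old mice, with a log2 fold change of −0.17 (SE 0.05, adjusted p = 0.00914). For both genes old and young libraries overlapped.

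Sptbn4 and Epb41l3 did not pass. Sptbn4, the spectrin bound by ankyrin-G, had a median of 159 CPM in young and 145 CPM in old libraries and a log2 fold change of −0.12 (SE 0.05, adjusted p = 0.0542). Epb41l3 had medians of 630 and 558 CPM and a log2 fold change of −0.13 (SE 0.06, adjusted p = 0.0879). Its highest value in either group, 688 CPM, was in old library 6.

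Old library 6 differed from the other old libraries in composition. Its 10 most abundant genes took 15.1% of its counts, against at most 11.9% in the other 15 libraries of the aging experiment. Its summed neuron markers were the highest of the old group at 10187 CPM, where the other 7 had 7681 to 9153 and the young libraries 8881 to 10176. Its microglia markers were the lowest, at 483 CPM in a group whose highest was 831, all above the 306 to 340 CPM of young mice. Without this library all 9 of 9 genes fell, with Epb41l3 at −0.18 (adjusted p = 0.00496) and Sptbn4 at −0.12 (adjusted p = 0.0471), while 31.9% of all tested genes were called. Over the whole marker lists, 4 of 12 neuron, 6 of 12 oligodendrocyte and 1 of 8 motor neuron markers fell with age, and 1, 1 and 0 rose. Of 8 microglia markers 7 rose, of 8 astrocyte markers 4 rose and 1 fell, and of 6 precursor markers 2 fell. Of 2 tested Schwann cell markers 1 rose, and 1 of 6 endothelial and 1 of 5 tested meningeal markers fell. In edgeR and in DESeq2, 0 of 5 blood markers passed, with 1 at an unadjusted p under 0.05. The part of cell composition in the members' falls was not tested.

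**Figure D2:**
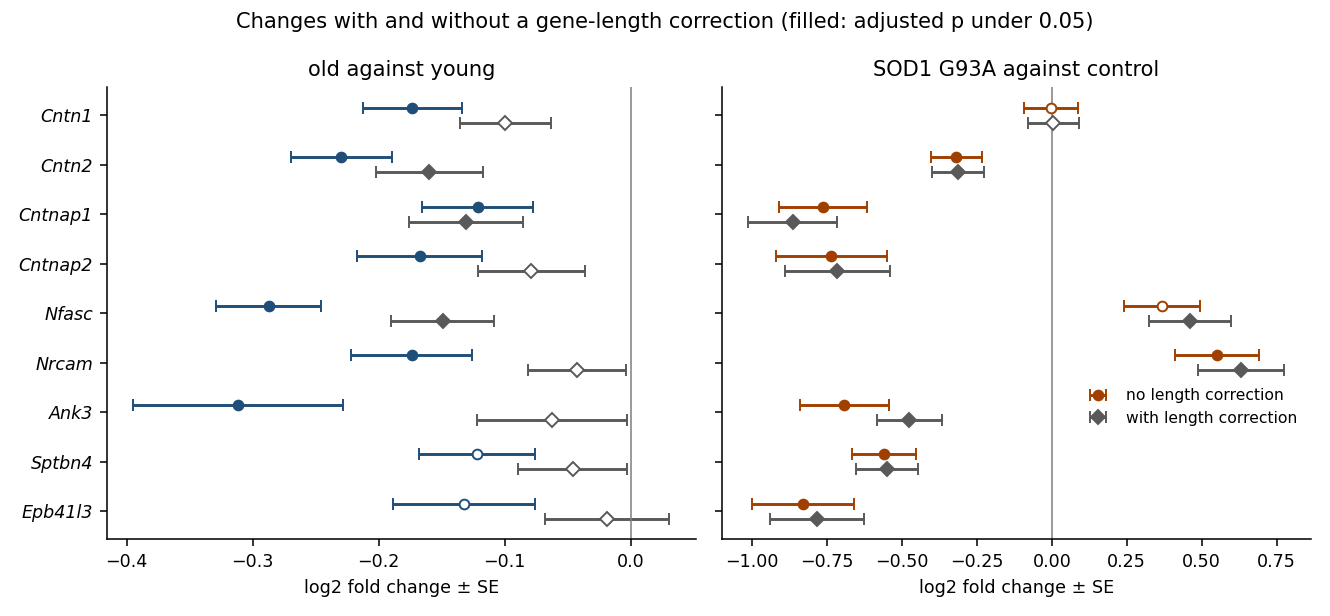
Log2 fold change ± SE of each gene without (coloured) and with (grey diamonds) a loess correction of each library for exon length, in both comparisons, with filled symbols for an adjusted p under 0.05. The 2 panels have different horizontal scales. The correction left 3 of the 7 calls in old mice, whereas in SOD1 G93A mice all 7 calls stayed and Nfasc was added.

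In SOD1 G93A mice the 9 genes went in both directions. By the test 6 of 9 fell and 1 rose, while 33.9% of the 14386 tested genes changed, 15.5% falling and 18.4% rising. Epb41l3, Cntnap1, Cntnap2 and Ank3 were at 56% to 62% of their control levels, Sptbn4 was at 68% and Cntn2 at 80%, while Nrcam was at 146%. Cntn1 averaged 452 CPM against 453 CPM in controls. The 3 SOD1 G93A libraries lay below all 3 controls for 6 genes and above them for 2, patterns that 24.7% and 25.7% of all tested genes showed. A log2 fold change below 0 was found for 7 of the 9 and for 49.7% of tested genes. None of the 9 passed a log2 fold change of 1, which 9.7% of tested genes did together with the test. Long genes were lower in this comparison too, with a Spearman rho of −0.162 between log2 fold change and exon length over 14371 genes. Of the 1945 tested genes over 9 kb, 24.9% fell, with a median of −0.11.

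Epb41l3, the link between Caspr proteins and spectrin, fell most. The controls had 629, 650 and 627 CPM, and the SOD1 G93A libraries had 290, 471 and 311 CPM, without overlap. Its log2 fold change was −0.83 (SE 0.17, adjusted p = 0.00747). SOD1 G93A library 2 was the one nearest to the controls.

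The paranodal pair came apart in level. Cntnap1 had 269.6, 292 and 276 CPM in controls and 143, 208 and 143 CPM in SOD1 G93A mice, a log2 fold change of −0.76 (SE 0.15, adjusted p = 0.00567). Cntn1, its axonal partner, had 438, 479 and 442 CPM in controls and 478, 452 and 427 CPM in SOD1 G93A mice, a log2 fold change of −0.0034 (SE 0.09, adjusted p = 0.982). The log2 ratio of Cntnap1 to Cntn1 was −0.70, −0.72 and −0.68 in controls and −1.74, −1.12 and −1.58 in SOD1 G93A libraries. The ratio was lower in all 3 than in any control, a difference of the means of −0.78, where the same difference between old and young was 0.05.

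**Figure D3:**
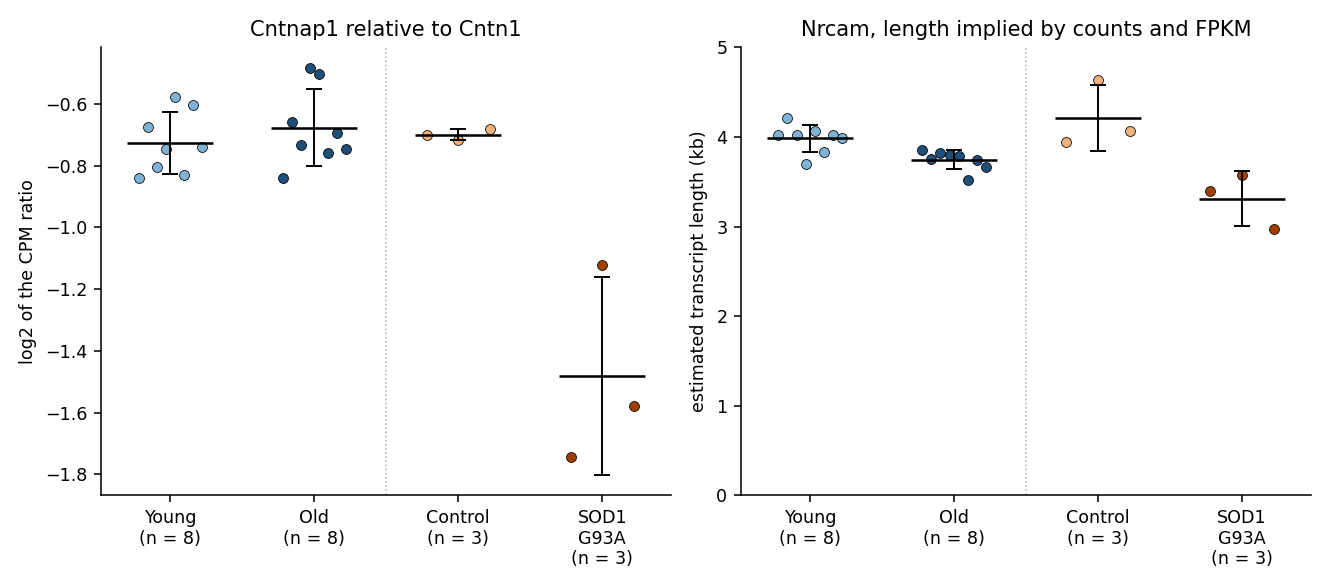
Left, the log2 ratio of Cntnap1 to Cntn1 CPM in each library, and right, the transcript length in kb that counts and FPKM imply for Nrcam, with the mean and SD of each group. The 3 SOD1 G93A libraries were below every control in both panels, with ratios from −1.74 to −1.12 and lengths from 2.97 to 3.57 kb.

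At the juxtaparanode, Cntnap2 had 154, 162 and 149.5 CPM in controls and 72.1, 126 and 81.4 CPM in SOD1 G93A libraries, a log2 fold change of −0.74 (SE 0.19, adjusted p = 0.016). Cntn2 had 444, 452 and 473 CPM in controls and 348, 380 and 369.7 CPM in SOD1 G93A libraries, a log2 fold change of −0.32 (SE 0.09, adjusted p = 0.0206). Neither gene overlapped between groups. The log2 ratio of Cntnap2 to Cntn2 was −1.53, −1.48 and −1.66 in controls and −2.27, −1.59 and −2.18 in SOD1 G93A libraries, and here the groups overlapped.

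Nrcam and Nfasc, both nodal members of the L1 family, were above every control. Nrcam had 199, 229 and 187 CPM in controls and 352, 246 and 303 CPM in SOD1 G93A mice, a log2 fold change of 0.55 (SE 0.14, adjusted p = 0.0166). Nfasc had 549, 627 and 586 CPM in controls and 866, 629 and 779 CPM in SOD1 G93A mice, a log2 fold change of 0.37 (SE 0.13, adjusted p = 0.0519), which missed the threshold. SOD1 G93A library 2 exceeded the highest control by less than 2 CPM for Nfasc. Without that library the log2 fold change of Nfasc was 0.49 with an adjusted p of 0.000912. That was the highest of the 6 fits that each left out 1 library. The lowest was 0.27, and adjusted p reached 0.178.

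The ankyrin and spectrin anchors went the other way from these adhesion molecules. Ank3 had 451, 567 and 439 CPM in controls and 269.96, 362 and 269.8 CPM in SOD1 G93A libraries, a log2 fold change of −0.69 (SE 0.15, adjusted p = 0.00867). Sptbn4 had 186, 198 and 220 CPM in controls and 125, 151 and 134 CPM in SOD1 G93A libraries, a log2 fold change of −0.56 (SE 0.11, adjusted p = 0.00526). Neither overlapped between groups. Genes whose log2 CPM ran closest to Sptbn4 over these 6 libraries, relative to their means, were Mphosph8, Nckipsd and Mcf2l, with root mean square differences of 0.019, 0.038 and 0.038, and the nearest of the other 8 genes, Cntn2, stood 928th of 14385.

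SOD1 G93A library 2 was the nearest of the 3 to the control mean for 9 of 9 genes. Its summed neuron markers were 7122 CPM, against 4542 and 5128 in libraries 1 and 3 and 10360 to 11010 in controls. Its microglia markers summed to 1256 CPM, against 2323 and 1822, and 317 to 381 in controls. Its astrocyte markers summed to 13108 CPM, against 19850 and 17568, and 7482 to 8132 in controls. Motor neuron markers summed to 156, 143 and 141 CPM in libraries 1, 2 and 3, and to 287 to 322 in controls, so there library 2 was not nearest to the controls. Counts of 4 Y-linked genes were 2673 in SOD1 G93A library 1 and 2383 in control library 3, and at most 12 in the other 4 libraries, so libraries 2 and 3 were alike in this measure.

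Several marker lists also changed in the ALS comparison, and others did not. Of 12 neuron markers 10 fell and 1 rose, of 8 motor neuron markers 6 fell, and their median log2 fold changes were −0.66 and −0.98. Of 12 oligodendrocyte markers 1 fell and 1 rose, with summed levels of 28319 to 32156 CPM in controls and 27136 to 29763 CPM in SOD1 G93A mice. Of 8 microglia markers 7 rose, and of 8 astrocyte markers 5 rose. Precursor markers rose for 3 of 6. Of 4 tested Schwann cell markers 2 rose, and of 6 meningeal markers 1 rose. In edgeR and in DESeq2, 0 of 6 endothelial and 0 of 5 blood markers passed, with 2 and 0 at an unadjusted p under 0.05. The part of these cell populations in the changes of the 9 genes was not tested.

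When 1 library of the ALS comparison was left out, 4 to 8 of the 9 genes passed. The lowest count came without SOD1 G93A library 3, when Cntn2, Cntnap2 and Nrcam lost the call, and the highest came without SOD1 G93A library 2, when Nfasc joined. Cntnap1, Ank3, Sptbn4 and Epb41l3 passed in all 6 of these fits. Cntn2 lost the call in 5 of 6, with log2 fold changes of −0.34 to −0.28 and adjusted p of up to 0.0827, and Nrcam in 3 of 6 with adjusted p of up to 0.0738.

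The change in SOD1 G93A mice differed from the change with age for 6 of the 9 genes, tested as an interaction in 1 edgeR fit of all 22 libraries, in which 25.8% of 14502 genes passed, 14.2% with a more negative and 11.6% with a more positive change in SOD1 G93A mice. It was more negative in SOD1 G93A mice for Epb41l3 by −0.72 (adjusted p = 0.000744), Cntnap1 by −0.67 (adjusted p = 0.000205), Cntnap2 by −0.60 (adjusted p = 0.00377) and Sptbn4 by −0.47 (adjusted p = 0.00104). It was more positive for Nrcam by 0.70 (adjusted p = 0.000132) and Nfasc by 0.63 (adjusted p = 9.87e-05), the genes that fell with age and were higher in SOD1 G93A mice. For Ank3 (−0.41, adjusted p = 0.0874), Cntn2 (−0.12, adjusted p = 0.301) and Cntn1 (0.14, adjusted p = 0.197) the difference did not pass. Experiment and kit coincide in this fit, and the mix of sexes differs between the experiments. The part of experiment, kit and sex in the difference cannot be told apart from that of the condition.

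**Figure D4:**
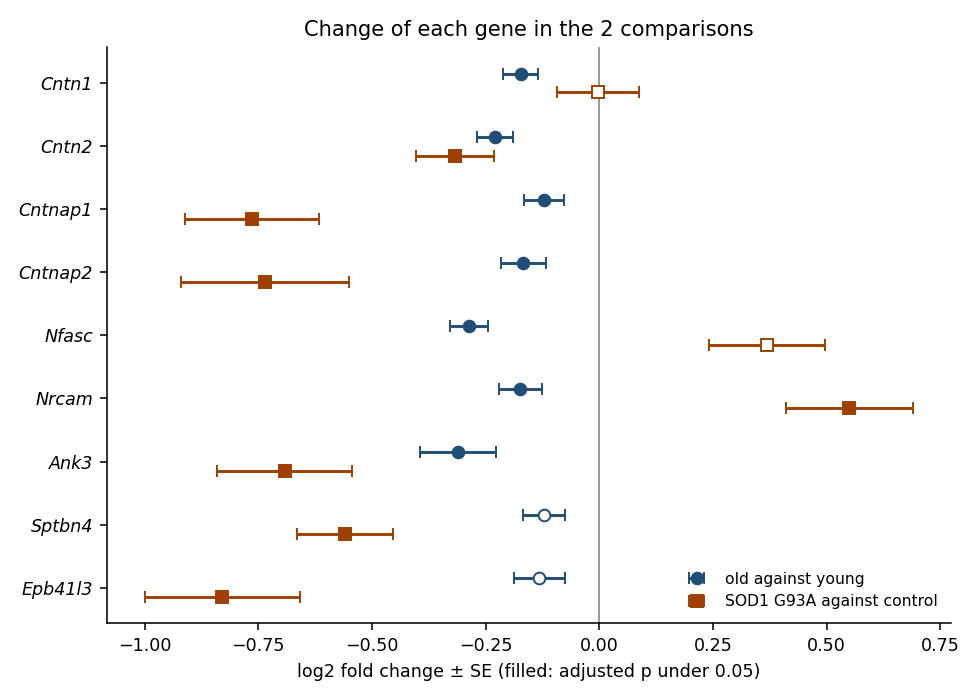
Log2 fold change ± SE of each gene in old against young mice (circles, n = 8 and 8) and in SOD1 G93A against control mice (squares, n = 3 and 3), filled where the adjusted p was under 0.05. All circles lie between −0.31 and −0.12, while the squares run from −0.83 for Epb41l3 to 0.55 for Nrcam.

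A length estimate, added after the data were seen, also separated Nrcam in SOD1 G93A mice. RSEM, the program that made the counts, divides by a length weighted over the transcripts it assigns reads to, so counts and FPKM together give that length in each library. For Nrcam, which has 7 coding transcripts, it was 3.95, 4.64 and 4.06 kb in controls and 3.40, 3.57 and 2.97 kb in SOD1 G93A libraries. The SOD1 G93A libraries were all shorter, which was so for 30.2% of 10049 genes with enough counts, with 5.01% longer, but the log2 ratio of −0.35 for Nrcam was matched or exceeded in that direction by 0.54% of them and their median was −0.01. In FPKM, Nrcam was at 49.8, 48.5 and 45.3 in controls and at 102.95, 70.6 and 104 in SOD1 G93A libraries, a wider gap than in CPM. Cntnap1, with 1 coding transcript, had 5.75 to 5.76 kb in controls and 5.64 to 5.69 kb in SOD1 G93A libraries, and Epb41l3 4.26 to 4.28 kb and 4.23 to 4.25 kb. The log2 ratios of Cntnap1 and Epb41l3 were −0.023 and −0.0095, near that median, with 28.1% and 52.5% of genes at or below them. The other 6 genes overlapped, Nfasc with 8.55 to 8.86 kb in controls and 8.69 to 8.90 kb in SOD1 G93A libraries. In aging all 9 genes overlapped, where 0.0253% of 7919 genes were shorter without overlap, with Nrcam at 3.70 to 4.21 kb in young and 3.52 to 3.86 kb in old libraries. These lengths rest on RSEM's division of reads between transcripts, which was not examined at the level of exons.

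The other genes of the node were described through lists of channels, matrix, paranode, juxtaparanode, initial segment and family relatives. Beside the counts of each list, 12.9% of all tested genes fell and 13.5% rose with age. In SOD1 G93A mice 15.5% of all tested genes fell and 18.4% rose. Of 10 channel genes of the nodal gap, 6 fell and 1 rose with age, and 8 fell in SOD1 G93A mice, with medians of −0.17 and −0.64. Scn8a, the main nodal sodium channel of mature axons, fell by 0.23 on the log2 scale with age (SE 0.05, adjusted p = 0.000642) and by 0.97 in SOD1 G93A mice (SE 0.18, adjusted p = 0.00523). Scn2a fell by 0.35 (adjusted p = 0.000282) and Scn1a by 0.28 (adjusted p = 0.000282) with age. In SOD1 G93A mice Scn4b, a sodium channel beta subunit, fell by 1.04 (adjusted p = 0.00949). The count of 8 went down to 2 without SOD1 G93A library 3, to 4 without SOD1 G93A library 1 or control library 2, and to 5 without control library 1 or 3.

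The juxtaparanode list fell as a whole in SOD1 G93A mice, 9 of 9 with a median of −0.85, and in 4 of 9 with age with a median of −0.06. Among all tested genes 15.5% fell in SOD1 G93A mice. There 10 of 12 neuron markers also fell and 1 rose, with a median of −0.66. Of 8 motor neuron markers 6 fell, with a median of −0.98. Kcna1, a Kv1 potassium channel, went from 202 ± 25.2 CPM (SD, n = 8) in young to 162 ± 17.2 CPM (SD, n = 8) in old mice and from 186 ± 41.9 CPM (SD, n = 3) in controls to 85.9 ± 22.8 CPM (SD, n = 3) in SOD1 G93A mice. Its log2 fold changes were −0.32 (adjusted p = 0.00212) and −1.11 (adjusted p = 0.0049). Kcna2 fell by 0.23 with age (adjusted p = 0.000519) and Adam22, which binds LGI proteins at this site, by 0.21 (adjusted p = 0.000127). In SOD1 G93A mice Adam23 fell by 1.04 (adjusted p = 0.00505) and the channel subunit Kcnab1 by 0.99 (adjusted p = 0.00418). Leaving out 1 library of the ALS comparison left 7 to 9 of the 9.

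The matrix list moved differently in the 2 comparisons. With age 4 of 7 genes fell, among them Tnr, the gene of tenascin-R, by 0.49 (SE 0.06, adjusted p = 3.75e-06), Bcan by 0.21 (adjusted p = 0.00212) and Vcan by 0.25 (adjusted p = 0.0275). Among SOD1 G93A mice 1 fell and 3 rose, with a median of 0.24. Bcan, the gene of brevican, fell by 0.51 (adjusted p = 0.00421). Dag1, the gene of dystroglycan, rose with a log2 fold change of 0.56 (adjusted p = 0.0125), and Gldn, which encodes the Schwann cell ligand gliomedin of peripheral nodes, rose with 1.47 (SE 0.40, adjusted p = 0.022) from 1.85 to 2.31 CPM in controls to 3.32 to 9.66 CPM. The count of 3 went down to 1 without SOD1 G93A library 1, control library 2 or control library 3, and to 0 without control library 1. With age the count of 4 went down to 2 without old library 4, old library 8 or young library 1.

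At the paranode, 6 of 8 partner genes fell and 1 rose with age, and 3 fell and 2 rose in SOD1 G93A mice. Among these partners, Ugt8a, Mag and Cldn11 are also counted as oligodendrocyte markers, and Ank2 and Sptbn1 also as family relatives. Ugt8a, the enzyme that makes the galactolipids of the glial loops, fell by 0.77 with age (SE 0.07, adjusted p = 1.24e-08). In SOD1 G93A mice it fell by 0.82 (SE 0.21, adjusted p = 0.0161). Sptbn1, a beta-spectrin, fell by 0.24 with age (adjusted p = 0.000153) and Sptan1, its alpha-spectrin partner, by 0.45 in SOD1 G93A mice (adjusted p = 0.00853). In which cells other genes rose was not tested. Cd9, a tetraspanin, rose by 1.02 with age (SE 0.10, adjusted p = 4.23e-08) and by 2.56 in SOD1 G93A mice (SE 0.21, adjusted p = 0.000158), and Cldn11, the tight junction claudin of myelin, by 0.71 in SOD1 G93A mice (adjusted p = 0.00287). Of the 3 that fell in SOD1 G93A mice, 0 passed without library 3 of that group and 1 without control library 1 or 2.

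At the initial segment, which shares ankyrin-G and beta-IV spectrin with the node, 4 of 8 genes fell and 1 rose with age, and 5 fell in SOD1 G93A mice. Camsap2 fell by 0.29 (adjusted p = 7.35e-05), Lgi1 by 0.18 (adjusted p = 0.00366) and Mtcl1 by 0.22 (adjusted p = 0.0127) with age. Fgf14 fell by 0.68 (adjusted p = 0.00774), Ndel1 by 0.33 (adjusted p = 0.0149) and Mapre3 by 0.37 (adjusted p = 0.0195) in SOD1 G93A mice. The latter count went down to 1 or 2 without any 1 of the ALS libraries except SOD1 G93A library 2.

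Of the 18 tested relatives in the families of the 9 genes, 11 fell and 0 rose with age, and 12 fell and 2 rose in SOD1 G93A mice. Cntnap3 had too few counts for the test. Relatives in the L1 family, to which Nfasc and Nrcam belong, went both ways in SOD1 G93A mice. L1cam fell by 0.49 (adjusted p = 0.0167), from 130 to 92.9 CPM on average, while Chl1, the close homologue of L1, rose with a log2 fold change of 0.99 (SE 0.11, adjusted p = 0.000534), from 116 ± 5.57 CPM (SD, n = 3) to 230.1 ± 31.5 CPM (SD, n = 3). Epb41l2, a relative of Epb41l3, rose with 0.68 (SE 0.11, adjusted p = 0.00278), whereas Epb41l1 fell by 0.67 (adjusted p = 0.00858). With age Sptb fell by 0.28 (adjusted p = 0.000101), Sptbn1 by 0.24 and L1cam by 0.28 (adjusted p = 0.000161). The 12 that fell in SOD1 G93A mice became 5 without SOD1 G93A library 3 or control library 2, and the count of those that rose was 2 without each library in turn.

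With the correction for exon length, the number of genes that fell with age went from 6 to 3 for channels, from 4 to 2 for matrix, from 6 to 3 for paranode partners, from 4 to 2 for the juxtaparanode and from 11 to 4 for relatives. With it, 8 channel, 9 juxtaparanode, 3 paranode and 12 family genes fell in SOD1 G93A mice, the same counts as without it. The count of matrix genes that rose went from 3 to 5 with it, and that of matrix genes that fell from 1 to 2. With limma on the log2 FPKM values, 5 relatives, 2 matrix genes and 1 initial segment gene fell with age.

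**Figure D5:**
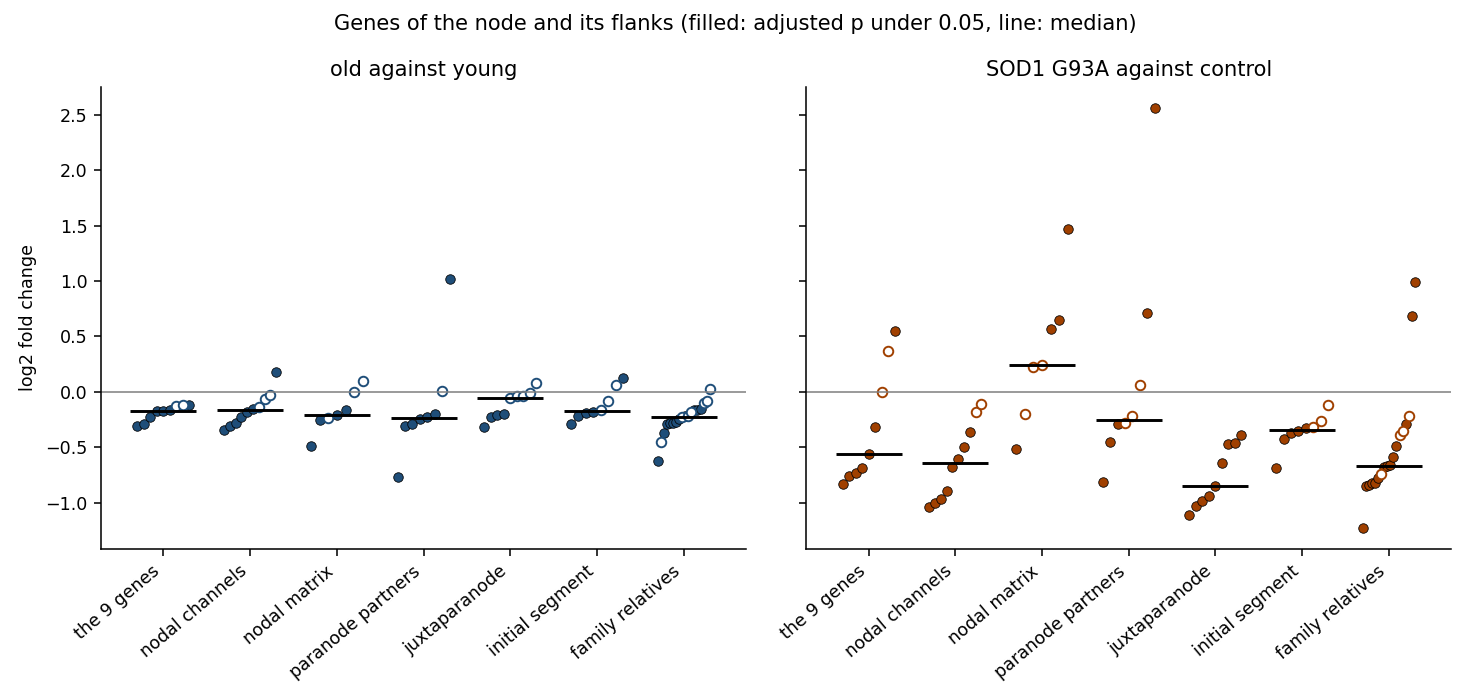
Log2 fold change of every tested gene of the 9 genes and 6 related lists, old against young on the left and SOD1 G93A against control on the right, with filled points for an adjusted p under 0.05 and a line at each median. The medians lie between −0.24 and −0.06 on the left, and on the right between −0.85 for the juxtaparanode and 0.24 for the nodal matrix, the only list with a median above 0.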

How the data were processed

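Whole spinal cords of 22 mice were measured by RNA-seq, 1 library per mouse. Alignment with STAR and gene summaries with RSEM, on the mm10 genome with an Ensembl annotation, were done by the authors, and the submitters' processing notes also name SAMtools 1.3. The authors deposited RSEM expected counts for 21995 genes and, in a second table, log2 of FPKM plus 1. The 9 genes and all lists were chosen with earlier results of these data known. Sequences and positions are from RefSeq GRCm38.p6 and GENCODE M21, which holds 21919 of the genes.

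Expected counts were rounded. Each comparison was fitted alone, with filterByExpr (minimum count 10, minimum total 15), TMM scaling, and the quasi-likelihood test of edgeR 4.0.16 in R 4.3.3 with Benjamini-Hochberg adjustment over all tested genes, and checked on simulated counts. FPKM levels were taken back from the log2 table. Estimated transcript length was CPM by total count divided by FPKM, for genes with at least 100 counts and an FPKM of at least 1 in every library, and was added after the data were seen. From each list of partners at most 3 genes per comparison were named, those with the smallest adjusted p among genes past the test, and for marker lists the 2 most abundant genes. Some genes that this rule names are not reported here. L1cam and Ugt8a in SOD1 G93A mice and Epb41l1 fall outside this rule and were named after their values were seen. Alternatives were DESeq2 1.42.0, RLE factors, no filter, at least 10 counts in every library, 1 fit of all 22 libraries, loess correction for exon length with a span of 0.3, limma 3.58.1 on the log2 values, and each library left out. Pairs of libraries of a group differed by more than sampling noise, with a lowest chi-square per degree of freedom of 2.36 over 62 pairs. Sex of each mouse was not a covariate.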

Additional observations from a re-analysis of the deposited data

Results flagged for a closer look

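For 6 of the 9 genes the change in SOD1 G93A mice differed from the change with age in an interaction test over all 22 libraries. Of all 14502 genes in that test 25.8% passed. The log2 difference was −0.72 for Epb41l3, −0.67 for Cntnap1, −0.60 for Cntnap2 and −0.47 for Sptbn4, which fell in SOD1 G93A mice. It was 0.70 for Nrcam and 0.63 for Nfasc, which fell with age and lay above every control in SOD1 G93A mice. Experiment and library kit coincide in this test, and the mix of sexes differs between the experiments. No library lay far from the others of its group in 24 checks of the 9 genes and 3 ratios in young and old mice. Groups of 3 were not checked.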

How the results depend on the processing

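Of the 7 genes called in old mice, 3 were left with the loess correction for exon length, 5 with 1 fit of all 22 libraries, and 4 with limma on log2 FPKM, where Epb41l3 was called as well. Leaving out 1 library gave 6 to 9 in old mice, 4 to 8 in SOD1 G93A mice and 6 to 7 for the difference between the comparisons. Under the other alternatives 7 to 8 genes were called in SOD1 G93A mice. The change of Cntn1 in SOD1 G93A mice, near 0, turned positive with at least 10 counts in every library (0.0081), with limma (0.018) and with the loess correction (0.0052), and ran from −0.040 to 0.041 when 1 library was left out. By counts per kb of exon, 3 of 9 genes kept their place in the order of levels in young cord. Of 324 refits of single changes, 275 kept direction and call, 29 lost and 14 gained the call, and 6 changed sign, all 6 for Cntn1. No paired analysis was possible because the columns of the tables carry no replicate numbers. With 3 mice per group, small changes in SOD1 G93A mice were less precise than in aging, as the standard errors show.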
